A study of Mus musculus with 14 samples.

Results

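The 40 genes described here act in G2 and mitosis, and they were chosen by symbol from the 32285 genes counted in every RNA library. All 40 symbols were found. The data came from white nodules of 7 Eif3e fl/fl, Cγ1Cre, Rosa26-YFP LSL mice (cKO) on a C57BL/6J background, where the Cre allele sits at the IgG1 heavy chain locus and is active in B cells that express it after stimulation. The floxed gene codes for one of the eIF3 subunits, which act when translation starts. RNA of single cells was read from every nodule together with rearranged receptors, those of B cells (BCR) in 5 mice and those of T cells (TCR) in 2 mice. BCR nodules came from the liver of mouse 27 and the lung of mouse 29 (both 12 mo), the spleen of mouse 31 (13 mo), the thymus of mouse 33 (16 mo), and lung with thymus of mouse 34 (9 mo). TCR nodules came from the liver of mouse 30 (14 mo) and the spleen of mouse 32 (12 mo). The nodule of mouse 27 was a secondary tumor grown in a Rag2-/- host, a strain that makes no B or T cells of its own. No nodule of a control mouse was analysed here, and no combination of site and age was sampled in more than 1 mouse.

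A cell that divides builds cyclin A and cyclin B with Cdk1 in G2, condenses its chromosomes, attaches them to the spindle through the kinetochores and, once the spindle checkpoint is satisfied, destroys the cyclins through the anaphase-promoting complex before cytokinesis. Most of the genes for these steps are transcribed late in the cell cycle and fall silent in cells that rest. Erythroid precursors divide several times before they fill with hemoglobin and leave the cycle, and neutrophils stop dividing as they mature.

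Many G2 and mitosis genes share promoter elements, the CHR (TTTGAA) and the CCAAT box. The 250 bases before the gene start were searched on both strands for these letters in the RefSeq promoters of GRCm38.p6, which held an entry for 35 of the 40 genes. Ccna2, Aurkb, Tpx2, Smc4 and Cdca2 had no entry. TTTGAA was found in 11 of the 35 genes (31.4%), against 18.3% of the 27025 genes with a promoter entry. CCAAT was found in 26 of 35 (74.3%), against 37.5% of all genes, and both in 10 of 35 (28.6%), against 6.45%. By single promoters, 16.0% of all 32851 held TTTGAA, 33.8% held CCAAT and 5.55% held both. The 2 motifs can share at most 1 letter where they meet. The promoters of the 3 genes with both motifs and the highest mean level in the clones are shown, because their levels are given below by mouse, with the motifs of either strand in capitals.
Mki67 (chr7:135716380-135716629, minus strand): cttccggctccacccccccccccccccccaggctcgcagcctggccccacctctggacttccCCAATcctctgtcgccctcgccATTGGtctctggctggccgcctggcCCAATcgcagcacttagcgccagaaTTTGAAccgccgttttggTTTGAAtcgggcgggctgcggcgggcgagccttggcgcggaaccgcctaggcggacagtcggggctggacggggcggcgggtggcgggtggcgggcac
Top2a (chr11:99024190-99024439, minus strand): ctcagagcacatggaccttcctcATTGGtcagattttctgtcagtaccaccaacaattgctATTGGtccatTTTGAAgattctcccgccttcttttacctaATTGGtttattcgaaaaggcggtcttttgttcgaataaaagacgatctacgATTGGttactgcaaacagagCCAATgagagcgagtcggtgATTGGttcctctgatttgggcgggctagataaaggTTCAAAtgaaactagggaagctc
Smc2 (chr4:52438971-52439220, plus strand): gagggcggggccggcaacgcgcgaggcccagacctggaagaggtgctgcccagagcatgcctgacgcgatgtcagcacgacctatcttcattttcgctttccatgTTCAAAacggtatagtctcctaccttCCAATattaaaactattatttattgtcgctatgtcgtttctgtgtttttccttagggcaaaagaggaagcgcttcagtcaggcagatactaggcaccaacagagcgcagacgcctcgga
Mki67, whose protein coats mitotic chromosomes, held 2 copies of TTTGAA and 3 of CCAAT in this window. Top2a, the topoisomerase that untangles sister chromatids, held 2 and 6. Smc2, a core subunit of condensin, held 1 of each. A match is a description of the letters and does not show that a factor binds there.

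Cells were sorted into populations by their receptor and by marker genes. Clone cells were the called cells that shared the commonest heavy or beta chain, or the light or alpha chain paired with it, and numbered between 323 (mouse 29) and 4868 (mouse 32). Bystander T cells were T-like cells outside the clone, and in the TCR mice they had to carry another TCR. In the BCR mice they had no BCR call and their TCR was not read, so whether they were clonal is unknown. Clusters were made without cell cycle genes, so the 40 genes did not shape them. Levels are given in CPM (UMIs scaled to a library total of 1e+06). The summed level of 9 T cell markers (among them Cd3e and Trac) was 3263 and 2073 CPM in the T clones of mice 30 and 32, and 8.14 to 61.0 CPM in the B clones. Libraries held 19264039 to 123456962 UMIs and shared at most 286 cell barcodes with each other. Depth differed between populations. The median cell held 9367 to 13763 UMIs in the B clones, 1992 and 3805 in the T clones, and 1191 to 3420 in bystander T cells. B-like cells without a BCR call held a median of 1535 (mouse 27) to 7400 UMIs (mouse 33).

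To compare cells at one depth, every cell was thinned to 1000 UMIs and shallower cells were left out. A cell with UMIs of at least 3 of the 40 genes was called G2/M-high. The B clone of mouse 27 was G2/M-high at 47.9% (95% Clopper-Pearson interval 45.5 to 50.2%) and that of mouse 34 at 44.2% (41.6 to 46.8%). Lower shares were found for mouse 33 with 25.2% (22.6 to 27.9%), mouse 31 with 23.0% (21.7 to 24.3%) and mouse 29 with 13.9% (10.3 to 18.2%). The mean over the 5 B clones was 30.8% ± 14.6 (SD, n = 5), and 26.6% without mouse 27, whose nodule grew in the Rag2-/- host. Among these receptor-called cells mice 27 and 34 were high, mice 31 and 33 between and mouse 29 low, and the intervals of neighbours overlapped for mice 27 and 34 and for mice 33 and 31. The T clones had 2.64% (1.99 to 3.45%) in mouse 30 and 6.04% (5.39 to 6.75%) in mouse 32, both below every B clone. B-like cells without a BCR call, whose clone is unknown, were G2/M-high at 39.9%, 14.9%, 25.5%, 15.8% and 19.5% in mice 27, 29, 31, 33 and 34. The share was thus well below that of the called clone in mice 34 and 33, and mouse 34 lay below mouse 31 among these cells. In mouse 27 it was also below, with no overlap of intervals (38.5 to 41.4% against 45.5 to 50.2%). In mice 29 and 31 it was above that of the clone, with overlapping intervals. Intervals cover counting error only.

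Of bystander T cells, 10.2%, 9.67% and 9.29% were G2/M-high in mice 27, 33 and 34, while mice 32, 31, 30 and 29 had 3.40%, 2.06%, 1.60% and 1.04%, with a mean of 5.33% ± 4.19 (SD, n = 7). Those of mouse 27 lay in the Rag2-/- host, and without this mouse the mean was 4.51%. Whether the host altered their share was not tested. The share of the B clone was above that of the bystander T cells of its own nodule in all 5 BCR mice, with no overlap of the intervals. The T clone of mouse 30 and its bystanders had overlapping intervals (bystanders 0.588 to 3.44%). In mouse 32 the interval of the clone began at 5.39%, where that of its bystanders ended, but 315 of its clone cells lay outside the T-like class and were G2/M-high at 44.8%. The T-like clone cells of mouse 32 had 3.35% (2.85 to 3.92%), beside 3.40% in its bystanders. Thinning left out 1766 of 5120 bystander T cells in mouse 29 and 167 of 577 in mouse 27, but none of the 323 and 2 of the 1782 clone cells of the same mice. Bystander T cells with Cd8 UMIs and no Cd4 UMI were G2/M-high at 6.96%, 1.05%, 8.33%, 4.76%, 3.36%, 12.3% and 13.1% in mice 27, 29, 30, 31, 32, 33 and 34. Those with Cd4 and no Cd8 UMI had 16.0%, 2.31%, 2.42%, 1.82%, 6.33%, 8.96% and 6.11%. The order was not the same in all nodules, and in mice 33 and 34 the intervals overlapped (10.5 to 14.3% against 7.07 to 11.1%, and 9.68 to 17.3% against 3.09 to 10.7%).

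Neutrophil-like cells were measured beside the others as a background, although their cluster also held Camp, Ngp and Ltf, genes of immature neutrophils. Their G2/M-high share was 0.874%, 2.59%, 3.03%, 2.38% and 2.56% in mice 29, 30, 31, 32 and 34, and 13.3% of 15 cells in mouse 27. In mice 31, 32 and 34 this was 1 cell each, with intervals that reached 15.8%, 12.6% and 13.5%. Their median cell held 1400 to 3630 UMIs. The T clone of mouse 30 had a like share. Its G2/M-high cells held 4583 CPM of 40 S phase genes and 4953 CPM of 52 other G2 and M genes. Its other cells held 877 and 575 CPM. The cells were picked by genes of the same cycle, and neutrophil-like cells were not split in this way. These levels therefore do not set the T clone apart from the background. The level in neutrophil-like cells came to a large part from Cks2, a small Cdk-binding protein, at a mean of 529 CPM of 1156 CPM for all 40 genes (n = 6 mice). After thinning, 31.4% and 26.1% of neutrophil-like cells had a Cks2 UMI in mice 29 and 30, against 3.04% of the T clone of mouse 30.

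**Figure D1:**
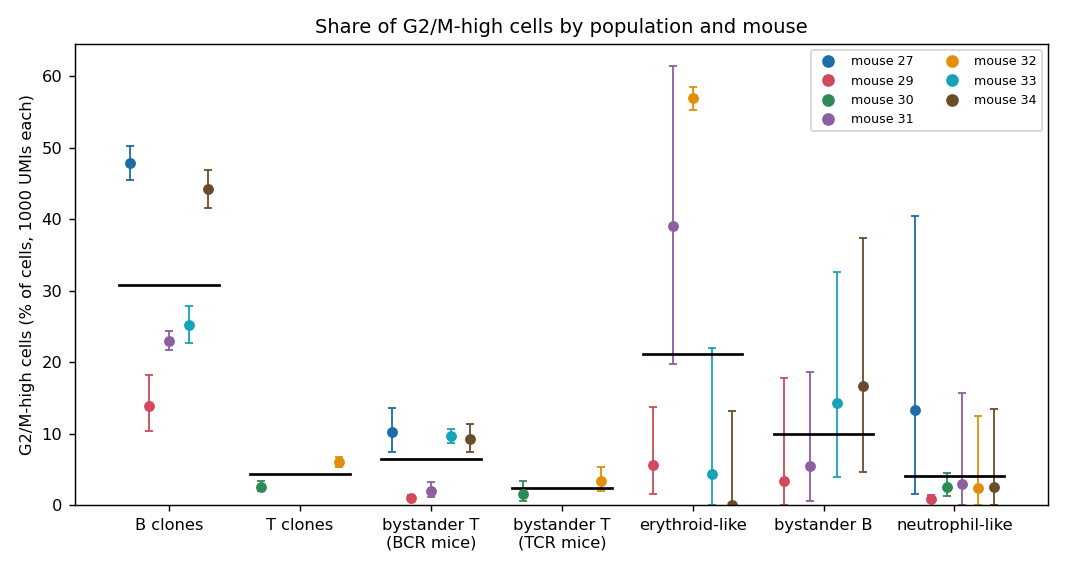
Percent of cells called G2/M-high (UMIs of at least 3 of 40 genes after thinning to 1000 UMIs), on the vertical axis, by population on the horizontal axis. Points are mice with 95% Clopper-Pearson intervals, and black bars are means over mice. B clones lay between 13.9% and 47.9%, and the T clones at 2.64% and 6.04%.

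Without thinning, 88.9% ± 7.57 (SD, n = 5) of B clone cells, 24.0% of T clone cells and 16.8% ± 11.3 (SD, n = 7) of bystander T cells had UMIs of at least 3 genes, a contrast that carries the depth of the cells. At 1000 UMIs each, G2/M-high cells of the B clones held 1.34 ± 0.105 (SD, n = 5) times the deposited UMIs of the other clone cells, by the ratio of medians. Values near the threshold were common. In the B clone of mouse 27, 256 cells had UMIs of 2 genes and 151 of exactly 3, and in the T clone of mouse 30 the numbers were 105 and 20.

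Mki67 and Top2a are widely used as marks of dividing cells. The level of Mki67 was 571, 163, 504, 237 and 541 CPM in the B clones of mice 27, 29, 31, 33 and 34, and 125 and 185 CPM in the T clones of mice 30 and 32. The lowest B clone, mouse 29, thus lay between the T clones, but the T-like clone cells of mouse 32 alone had 76.9 CPM. Bystander T cells held 150, 33.6, 92.6, 79.2, 66.3, 197 and 209 CPM of Mki67 in mice 27, 29, 30, 31, 32, 33 and 34. Each clone was above its own bystanders, also mouse 32 with T-like clone cells only. Top2a stood at 328, 171, 189, 288 and 408 CPM in the B clones, each above both T clones (76.7 and 125 CPM). After thinning, 35.8% of cells of the B clone of mouse 27 and 3.79% of the T clone of mouse 30 had a Mki67 UMI, against 0.874%, 1.51%, 3.03%, 4.76% and 5.13% of neutrophil-like cells in mice 29, 30, 31, 32 and 34.

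Summed over the 40 genes, the level was 4448, 1645, 2511, 2229 and 4517 CPM in the B clones of mice 27, 29, 31, 33 and 34, and 1101 and 1567 CPM in the T clones of mice 30 and 32. The sums of bystander T cells were 1897, 593, 1111, 762, 717, 2207 and 2510 CPM in mice 27, 29, 30, 31, 32, 33 and 34. The clone had 2.34, 2.78, 3.30 and 1.80 times the level of its bystanders in mice 27, 29, 31 and 34. In mouse 33 the ratio was 1.01, and in the TCR mice it was 0.991 (mouse 30) and 2.19 (mouse 32). A sum weights each cell by its UMIs. With each cell counted equally at 1000 UMIs, the clone of mouse 33 held 2.00 UMIs of the 40 genes per cell and its bystanders 1.22. These values were 4.13 and 1.25 in mouse 27, and 4.09 and 1.21 in mouse 34. The median UMIs of G2/M-high bystander T cells were 3.10, 3.29 and 3.24 times those of the others in mice 27, 33 and 34. How far the weighting by UMIs sets the ratio of mouse 33 was not tested.

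**Figure D2:**
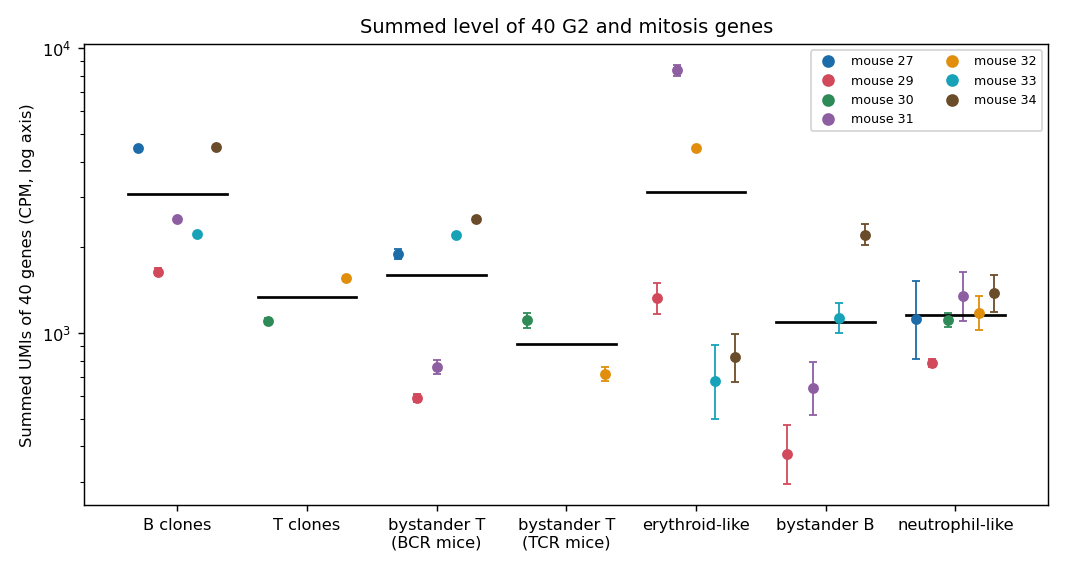
Summed level of the 40 genes in CPM (log axis) by population. Points are mice with 95% Poisson intervals of the summed counts, and black bars are means. The B clones of mice 27 and 34 stood at 4448 and 4517 CPM, and in mouse 33 the clone (2229) and the bystander T cells (2207) lay side by side.

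Raw UMIs were summed per mouse and population and tested with edgeR's quasi-likelihood method across all 14513 genes that passed the filter, with mouse as a block and Benjamini-Hochberg adjustment. Between B clones and the bystander T cells of the same nodules, 27 of the 40 genes were higher and 0 lower at an adjusted p of 0.05. Of all genes tested, 15.8% were higher and 17.1% lower in this comparison. The median log2 fold change of the 40 genes was 1.31, against 0.06 over all genes tested, and all 40 had a value above 0. The 5 with the largest change past the threshold were Cdca2, Bub1b, Ect2, Bub1 and Mki67. Cdca2, which brings protein phosphatase 1 to chromosomes, was higher by 2.37 ± 0.29 (SE) on the log2 scale (adjusted p = 0.000778, edgeR). Its bystander T cells held only 11, 12, 6, 194 and 36 UMIs of it in mice 27, 29, 31, 33 and 34. Bub1b, the checkpoint kinase relative BubR1, was higher by 2.02 ± 0.42 (adjusted p = 0.00814, edgeR), and Bub1, the kinase it works beside at the kinetochore, by 2.01 ± 0.46. Ect2, the exchange factor that activates RhoA for the cleavage furrow, was higher by 2.02 ± 0.33 and Mki67 by 1.81 ± 0.36 (adjusted p = 0.0028 and 0.00666, edgeR).

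By role, 6 of 8 genes for kinases, cyclins and mitotic entry rose, with Ccna2, Ccnb1, Cdk1, Cks2, Aurka and Cdca3 past the threshold. Ccnb2 (log2 0.90 ± 0.54) and Plk1 (1.01 ± 0.40) did not pass. In the spindle checkpoint 4 of 5 rose, and in chromosome structure 4 of 5, with Top2a at 1.64 ± 0.45. Smc2, whose promoter is printed above, rose by 1.03 ± 0.29, at 162, 64.9, 91.7, 79.8 and 132 CPM in the B clones of mice 27, 29, 31, 33 and 34 and 82.0, 22.0, 29.3, 89.9 and 82.6 CPM in their bystander T cells, with mouse 33 alone lower in the clone. Smc4, its partner in condensin, was the exception there at 0.31 ± 0.21 (adjusted p = 0.292, edgeR). Both cytokinesis genes, Anln and Ect2, 3 of 4 spindle genes (Tpx2, Hmmr and Nusap1), 3 of 5 kinesins (Kif11, Kif23 and Kif4) and 3 of 6 centromere and kinetochore genes (Cenpe, Cenpf and Nuf2) rose. Of the chromosomal passenger complex only Cdca8, the borealin subunit, passed (1 of 3). Aurkb, its kinase, was at 1.70 ± 0.57 (adjusted p = 0.05005, edgeR) and Birc5, survivin, at 1.00 ± 0.54. Cdc20, the activator of the anaphase-promoting complex, rose by 1.60 ± 0.45, and its ubiquitin-conjugating enzyme Ube2c was at 1.08 ± 0.52 without passing. Values about as small as that of Smc4 were those of Cenpa, the histone H3 variant of centromeres (0.33 ± 0.37), and its loading factor Hjurp (0.32 ± 0.22).

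The most abundant gene of each role shows how the levels lay behind these fits. Cks2, which binds Cdk1, had 250, 110, 232, 92.7 and 241 CPM in the B clones of mice 27, 29, 31, 33 and 34, and 114, 42.1, 99.1, 103 and 138 CPM in their bystander T cells. Bub3, a checkpoint protein that recruits Bub1, had 98.1, 41.3, 91.7, 43.6 and 86.5 against 52.5, 18.5, 30.5, 51.8 and 61.9 CPM. Both were lower in the clone than in bystanders in mouse 33 and higher in the other 4 mice. Cdca8 had 136, 49.8, 71.9, 63.7 and 169 against 67.2, 7.62, 12.3, 65.9 and 87.8 CPM, with the same exception. Tpx2, which nucleates spindle microtubules, had 185, 39.8, 73.7, 78.1 and 167 against 47.6, 9.49, 9.39, 72.7 and 88.9 CPM. Kif11, a motor that pushes spindle poles apart, had 106, 47.5, 50.6, 98.1 and 126 against 59.9, 11.8, 18.8, 70.7 and 66.5 CPM, and Ect2 had 105, 31.04, 89.5, 52.7 and 105 against 24.6, 7.62, 11.1, 27.1 and 33.4 CPM. For these last 3 genes the clone was above in all 5 mice.

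The count was lower under other choices of cells and design. With only cells of at least 2000 UMIs, 15 genes were higher and the median log2 fold change was 0.82. This limit changes both the depth and the make-up of the populations, which cannot be told apart. Without the mouse block 7 were higher, and with all B-like cells in place of the clone 19 were. The count fell to 15 without mouse 27, 15 without mouse 31 and 17 without mouse 34. For none of these settings was the share of all genes called counted.

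In 19 of the 40 genes the clone exceeded the bystander T cells in all 5 BCR mice, against 16.2% of 16031 genes with at least 50 UMIs. In single mice the clone was above in 40 of 40 genes in mice 27 and 31, 39 in mouse 34, 38 in mouse 29 and 19 in mouse 33. Over all genes the clone was above in 59.7%, 47.5%, 47.1%, 44% and 44.3% in the same order of mice. Mouse 33 thus stood apart from the other BCR mice. Cenpe, the kinetochore motor, was above in the clone of each. It had 196, 34.4, 73.3, 95.3 and 147 CPM in the clones of mice 27, 29, 31, 33 and 34, and 52.5, 13.5, 11.1, 58.7 and 52.4 CPM in their bystander T cells. For Ube2c the clones had 169, 57.5, 29.3, 60.6 and 210 CPM and the bystanders 82.0, 7.33, 9.39, 120 and 151 CPM, so in mouse 33 the bystander value was higher.

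**Figure D3:**
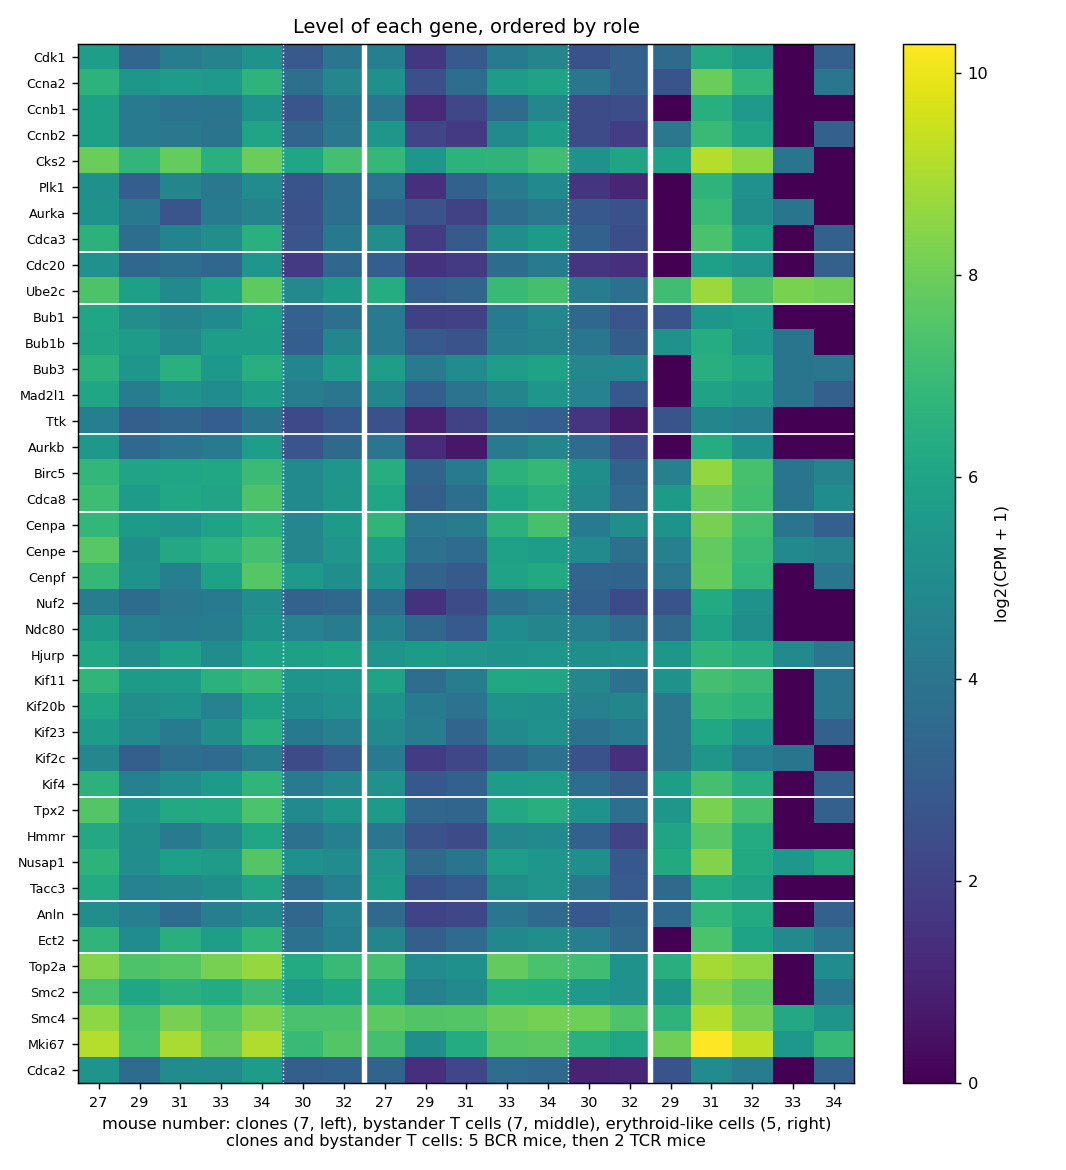
Level of each of the 40 genes as log2(CPM + 1), in rows ordered by role, with 1 column per mouse for the clones, the bystander T cells and the erythroid-like cells. In the clones, mice 27 and 34 were highest. Mki67 in erythroid-like cells of mouse 31 (1252 CPM, 27 cells) was the highest value plotted.

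Among the B clones, 25 of the 40 genes had their highest level in mouse 27 and 15 in mouse 34, and none in the other mice. Mouse 27 was the nodule grown in the Rag2-/- host. The lowest level was in mouse 29 for 24 genes, in mouse 31 for 11 and in mouse 33 for 5. The ratio of highest to lowest B clone had a median of 3.43 over the 40 genes. It was smallest for Birc5 (2.03) and largest for Cenpf (9.03), a large kinetochore protein with levels of 190 CPM (mouse 34) and 21.0 CPM (mouse 31), and for Cdca3 (7.98) and Ube2c (7.16). Neither the order of mice nor this ratio was computed over all genes, so they are not shown to be particular to the 40 genes. The 40 genes did not rise and fall in one proportion. Mki67 took 20.1% of the UMIs of the 40 genes in the clone of mouse 31 and 9.93 to 12.8% in the other 6 clones. Smc4 took 6.98 to 14.7% of them in the clones and 10.98 to 30.5% in bystander T cells, where it was the largest single share in all 7 mice. UMIs tag 1 end of a transcript and were not divided by transcript length.

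The T clones were compared with the bystander T cells that carried another receptor in the same nodule, in the same fit. None of the 40 genes passed (0 higher, 0 lower in edgeR, 4 at an unadjusted p under 0.05, and 0 in DESeq2), and 0.0276% of all 14513 genes did. The median log2 fold change was 0.67, against 0.11 over all genes. With 2 T clones, missing the threshold does not show that the values were alike. The members with the smallest p were Cdca2 (log2 2.75 ± 0.64, adjusted p = 0.292, edgeR), Cenpf (1.99 ± 0.52), Plk1, the Polo kinase (2.42 ± 0.85), Cks2 (0.93 ± 0.39) and Kif11 (1.01 ± 0.45). The first of these rested on few UMIs. Bystander T cells of mice 30 and 32 had 1 and 2 UMIs of Cdca2, 9 and 16 of Cenpf, and 2 and 2 of Plk1.

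The 2 mice differed. In mouse 30, 24 of 40 genes were above in the clone, against 57.9% of all genes, and the median log2 ratio was 0.12. In mouse 32 it was 39 of 40, against 66.5% of all genes, and the median was 1.53. Of the 4868 clone cells of mouse 32, 203 lay in erythroid-like clusters and 97 in an unnamed class. These 203 cells held a median of 20879 UMIs, 3477 CPM of Car1, the carbonic anhydrase of early red cells, and 65.8 CPM of Cd3e, which stood at 450 CPM in the T-like clone cells and 2.78 CPM in erythroid-like cells without a TCR. They gave 17.2% of the UMIs of the clone, and 49.3% of them were G2/M-high, against 3.35% of the 4553 T-like clone cells. With T-like clone cells only, the 40 genes took 809 CPM in mouse 32, 1.13 times its bystander T cells, with 29 of 40 genes above (60.6% of all genes) and a median log2 ratio of 0.43. In mouse 30 these values were 0.968, 24 of 40 (57.2%) and 0.12. The fitted median over both mice was then 0.09, with 0 genes past the threshold. Whether the 203 cells are single cells was not tested.

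The change in the T clones was set against that in the B clones within the same fit. None of the 40 genes passed (0 in edgeR and DESeq2, 1 at an unadjusted p under 0.05), against 2.03% of all genes (1.67% higher and 0.358% lower in T clones), and the median difference of log2 fold changes was -0.57. Ect2 had the smallest p, at -1.92 ± 0.64 (adjusted p = 0.193, edgeR). With clone cells of their own class only, 1 gene passed, lower in T clones, and the median was -1.07. Without mouse 30 the median was 0.10, with only the clone of mouse 32 left among T clones. That clone includes 315 cells outside the T-like class, at 3773 CPM of the 40 genes against 809 CPM in its T-like cells. The sign thus depended on which T clone and which of its cells were counted.

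Between mice, the 5 B clones were also compared with the 2 T clones, where lineage, site and mouse cannot be told apart. Of the 40 genes 2 were higher in B clones and 0 lower, against 2.05% and 4.69% (6.74% in all) of 15191 genes. They were Bub1, at 65.2, 32.6, 23.6, 29.1 and 57.4 CPM in the B clones of mice 27, 29, 31, 33 and 34 and at 8.48 and 13.1 CPM in the T clones (log2 2.18 ± 0.49, adjusted p = 0.0430, edgeR), and Ect2 (2.42 ± 0.57, adjusted p = 0.0473, edgeR). The median log2 fold change of the 40 genes was 1.62, against 0.08 over all genes, and all 40 were above 0. In 14 genes every B clone exceeded both T clones, against 9.52% of all genes. DESeq2 called 20, and edgeR 19 with clone cells of their own class only, so the count depended on the model and on which clone cells were counted. The share of all genes called in these 2 settings was not counted, so neither number can be set against it. It was 12 without mouse 29, 1 without mouse 31, and 0 without any 1 of mice 27, 30, 32, 33 and 34.

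B cells with another BCR were few, with 32, 41, 28 and 24 cells in mice 29, 31, 33 and 34. Their G2/M-high shares were 3.45%, 5.56%, 14.3% and 16.7%, each below that of the B clone of the same mouse, with overlapping intervals in mouse 29 (0.087 to 17.8% against 10.3 to 18.2%) and mouse 33. None of the 40 genes passed in edgeR (0, with 29 at an unadjusted p under 0.05), against 0.0325% higher and 0.0541% lower among 9237 genes. DESeq2 called 3, Mki67, Top2a and Ccna2, all higher in the clone, and its share of all genes was not counted. The median log2 fold change was 1.43, against 0.13 over all genes, and all 40 were above 0. The smallest p belonged to Nusap1, a protein that stabilizes spindle microtubules (log2 2.29 ± 0.49, adjusted p = 0.173, edgeR), then Top2a, Mki67 (2.00 ± 0.46), Ccna2 (2.49 ± 0.59) and Cdca8 (1.94 ± 0.47).

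**Figure D4:**
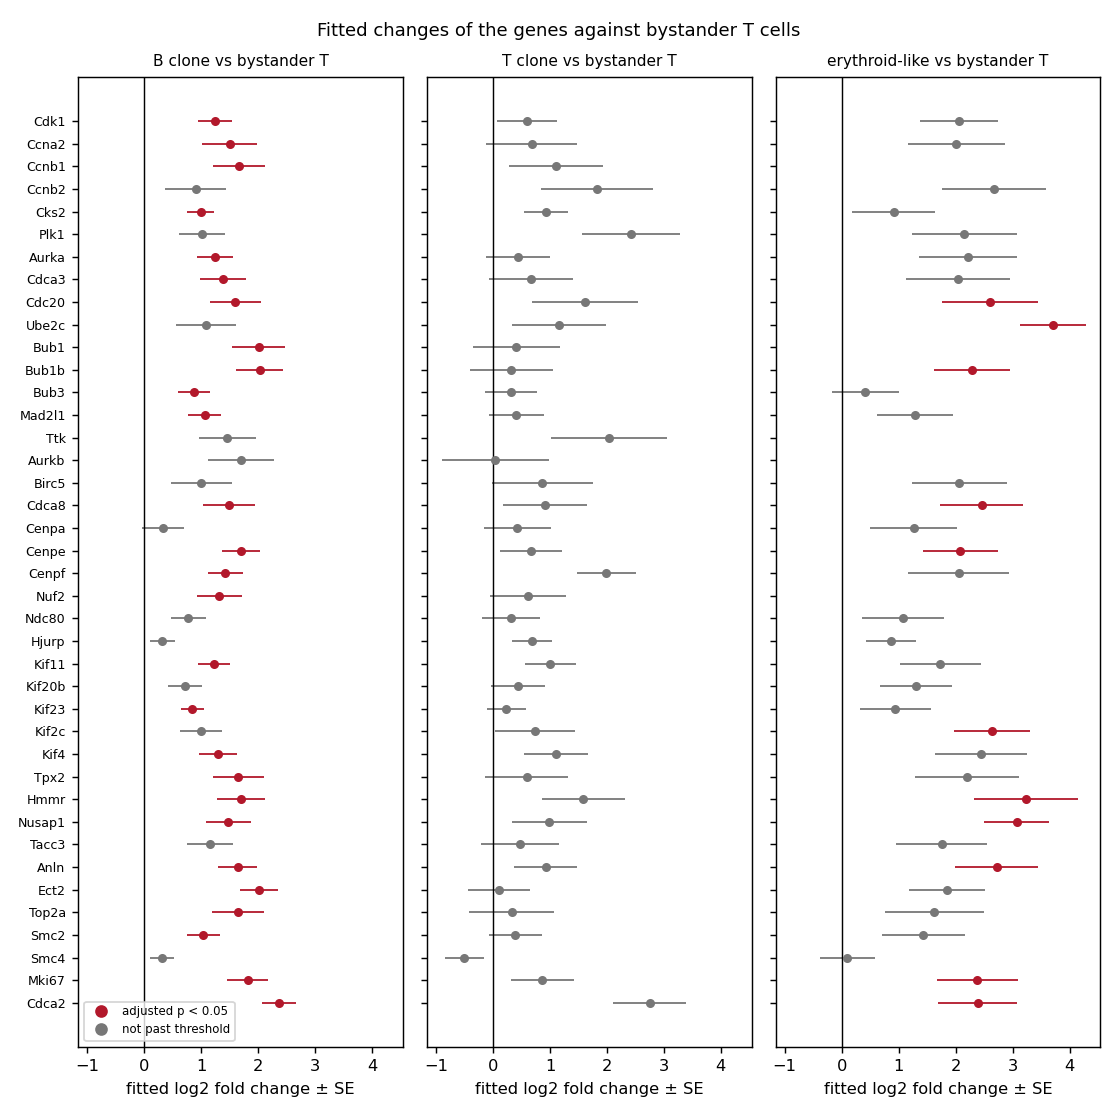
Fitted log2 fold change ± SE from edgeR of each of the 40 genes against bystander T cells, for B clones (left), T clones (middle) and erythroid-like cells (right). Red points passed an adjusted p of 0.05, and genes without a point were not tested. B clones had 27 red points, T clones 0 and erythroid-like cells 11.

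Erythroid-like cells differed most between nodules. Mouse 32 held 3729 of them without a TCR call, and mice 29, 31, 33 and 34 held 85, 27, 27 and 26. Mice 27 and 30 held 3 each and were left out. In mouse 32, 56.9% (55.3 to 58.5%) were G2/M-high. The share was 39.1% in mouse 31 (19.7 to 61.5%), 5.63% in mouse 29 (1.56 to 13.8%), 4.35% in mouse 33 (0.110 to 21.9%) and 0 of 26 cells in mouse 34, which allows up to 13.2%. The summed level reached 8357 CPM for mouse 31 and 4474 CPM for mouse 32, but 1326, 681 and 821 CPM for mice 29, 33 and 34, so mice 31 and 32, both spleen nodules, were high and the others low. Adult globin RNAs took 359602, 436890 and 771550 CPM of the erythroid-like cells of mice 29, 33 and 34, and 108286 and 4500 CPM in mice 31 and 32. The low mice thus had more globin than the high ones, while mouse 31 had both a higher summed level and more globin than mouse 32. Within mouse 32, 77.5% (74.3 to 80.5%) of 728 cells of a cluster with 2.34% globin and 51.8% (49.9 to 53.6%) of the 2896 cells of another with 0.0132% globin were G2/M-high. A high share of globin lowers the CPM of every other gene and leaves fewer of the 1000 thinned UMIs for them. The shares and levels of mice 29, 33 and 34 are thus low by construction to an extent that was not tested. This bears most on mouse 34, where globin took 771550 CPM. Levels without the globin UMIs were not computed, so whether the same nodules would then be high and low is not known.

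Against bystander T cells of the same 5 mice, 11 of the 35 genes tested were higher in erythroid-like cells and 0 lower, against 3.21% and 11.5% of 9009 genes. Ccnb1, Bub1, Ttk, Aurkb and Nuf2 did not pass the filter on low counts and were not tested. In erythroid-like cells they had 3130, 3477, 1420, 2382 and 2545 UMIs in mouse 32, but 0 in mice 33 and 34. The median log2 fold change of the 35 was 2.06, against -0.29 over all genes. Ube2c had the largest change, 3.71 ± 0.58 (adjusted p = 0.000273, edgeR), at 139, 423, 172, 296 and 266 CPM in mice 29, 31, 32, 33 and 34, where bystander T cells had 7.33, 9.39, 12.4, 120 and 151 CPM. It was higher in 5 of 5 mice, and in mice 33 and 34 it took 43.5% and 32.4% of the UMIs of the 40 genes. These were few, with 20 of 46 UMIs in mouse 33 and 34 of 105 in mouse 34. Hmmr, a spindle pole protein (3.24 ± 0.92), Nusap1 (3.07 ± 0.57), Anln, the actin-binding anillin of the cleavage furrow (2.72 ± 0.73), and Kif2c, a kinesin that takes microtubules apart (2.65 ± 0.67), followed. These fits also rested on mice 29, 31 and 32. Hmmr had 0 UMIs in mice 33 and 34, Anln 0 and 1 UMI, Kif2c 1 and 0, and Nusap1 was below bystander T cells in mouse 33 (44.4 against 52.8 CPM). Mki67 was higher by 2.38 ± 0.71 (adjusted p = 0.0303, edgeR), at 267, 1252, 627, 44.4 and 117 CPM, of which those in mice 33 and 34 were below their bystander T cells. The count was 2 without mouse 31, 26 without mouse 33, and 2 with cells of at least 2000 UMIs, and shares of all genes were not counted in these settings.

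Genes of neighbouring steps were counted from lists fixed with the 40. Of 52 other G2 and M genes, 29 were higher and 1 lower in B clones than in bystander T cells, and of 40 S phase genes 28 were higher and 0 lower, beside 15.8% and 17.1% of all genes. In the T clones 0 of 52 and 0 of 40 passed (0 and 1 in DESeq2, and 2 and 1 at an unadjusted p under 0.05). In erythroid-like cells 7 of 35 other G2 and M genes and 7 of 37 S phase genes were higher and 0 lower. The summed S phase level was 2464 ± 534 CPM (SD, n = 5) in B clones, 1128 and 1438 CPM in the T clones and 1398 ± 429 CPM (SD, n = 7) in bystander T cells.

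Eif3e itself was counted in every nodule, at 169 to 243 CPM in the B clones, 146 and 142 CPM in the T clones and 116 to 183 CPM in bystander T cells. Whether the counted end of the transcript lies in the floxed part is not known, so these counts do not check the deletion. The paper found tumor B and CD4+ T cells without YFP, the mark of Cre activity, and with eIF3e protein at a normal level. It therefore describes the tumor lymphocytes as eIF3e-sufficient. Within each clone, Eif3e was taken as a share of the UMIs of 14 eIF3 subunit genes. In mouse 30 the share was 3.82% in G2/M-high and 6.59% in other clone cells, in mouse 29 it was 5.26% and 6.37%, and in mouse 32 it was 5.18% and 5.94%. In mice 27, 31, 33 and 34 it was 5.49%, 4.32%, 5.72% and 4.66% in G2/M-high cells and 5.84%, 4.82%, 5.95% and 5.24% in the others. The share was lower in G2/M-high cells in 7 of 7 mice, with a mean log2 ratio of -0.25 ± 0.25 (SD, n = 7) and an exact two-sided sign-flip permutation p of 0.0156, the smallest that 7 mice allow. By CPM over all genes the mean log2 ratio was -0.14 with an exact permutation p of 0.172. The value of mouse 30 rested on 40 Eif3e UMIs of 53 cells, and without it the mean was -0.16 (exact permutation p = 0.0312). In mouse 32, 152 of the 293 G2/M-high clone cells were T-like, so its pair also sets cell classes against each other, and without it the mean was -0.26 (exact permutation p = 0.0312). The fall was not confined to clones. G2/M-high bystander T cells had 5.42%, 3.92%, 7.14%, 5.14% and 4.59% in mice 29, 30, 32, 33 and 34, against 7.95%, 7.77%, 7.23%, 6.61% and 6.14% in the others. In mice 27 and 31 they were higher (5.81% and 6.22% against 4.70% and 5.12%). Erythroid-like cells of mouse 32 had 4.98% against 5.51%. These pairs were not tested.

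**Figure D5:**
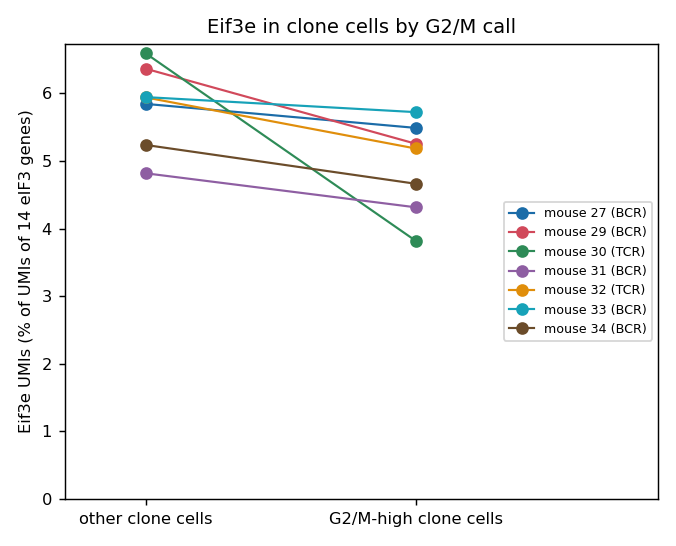
Eif3e UMIs as a percent of the UMIs of 14 eIF3 genes in other clone cells (left) and G2/M-high clone cells (right), with 1 line per mouse. All 7 lines fall, from 4.82 to 6.59% on the left to 3.82 to 5.72% on the right.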

How the data were processed

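RNA was deposited as unnormalized UMI counts for each cell, none below 500 UMIs in all, and receptors as UMI counts of contigs that the authors assembled with SeekSoulTools. The submitters' processing notes name GRCm38 and mm10. The aligner is not given in the sources used here. The methods name a 3′ kit and the labels a 5′ kit for these libraries, so the counted end is unsettled. Of 77442 cells, 75503 passed the study's limits (at least 201 UMIs and 101 genes, at most 10% mitochondrial UMIs). Leiden clusters (scanpy 1.11.5, 2000 variable genes without cell cycle genes, 30 components, resolution 1.0) were named by at least 3 markers. A first naming rule set plasma cell markers against B cell markers and left the main B cluster of mouse 27 unnamed, so it was changed after that was seen. Names are rebuilt and may differ from those of the study. The check of B clones against their own marker list is not reported here. No cells were removed as doublets. Sums of at least 20 cells per mouse were tested in edgeR (TMM, filterByExpr, Benjamini-Hochberg 0.05) with mouse as a block, since both sums come from 1 nodule. The deviations of paired sums from their group means correlated at 0.271 to 0.435. DESeq2, other normalization, filters, populations, depths and leaving out mice were alternatives. The method was tested on simulated data. The replicate is the mouse. Named genes were Mki67, Top2a, the member with the highest mean level of each role, and up to 5 per comparison by change (or by unadjusted p where none passed). Others are named by role. Members and lists were chosen with earlier results of these data known.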

Additional observations from a re-analysis of the deposited data

How the results depend on the processing

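No called result changed sign under the alternatives run. The median difference of effects, which was not called, changed from -0.57 to 0.10 without mouse 30. Thinning to 2000 UMIs gave mean G2/M-high shares of 46.0% (B clones), 11.2% (T clones) and 14.3% (bystander T cells), and no thinning gave 88.9%, 24.0% and 16.8%. At least 2 genes gave 12.1% for T clones and 13.8% for bystander T cells, and at least 5 genes gave 18.8% (B clones), 1.77% (T clones) and 2.57% (bystander T cells). Thinning to 500 UMIs gave 17.6%, 2.13% and 2.48%. For erythroid-like cells thinning to 500 UMIs, no thinning and at least 5 genes gave 14.3%, 39.9% and 13.7%. The paired design mattered for B clones against bystander T cells, where 7 genes passed with no replicate block instead of 27, and it moved no other count by over 1.5 times. Cells of at least 2000 UMIs gave 15 genes in that comparison, 2 for erythroid-like cells and 1 for B against T clones. Without a filter on low counts 3 genes passed for erythroid-like cells and 3 for B clones against other B cells. DESeq2 gave 20 for B against T clones and 3 against other B cells. Own-class clone cells gave 19 for B against T clones and 1 for the difference of effects. All B-like cells in place of the clone gave 0 against T clones, and classes from marker UMIs gave 26 for erythroid-like cells. The share of all genes called was not counted in any alternative, leaving out mice included. By CPM, the Eif3e ratio was -0.14.

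Leaving out 1 mouse at a time gave mean shares of 26.6 to 35.1% (B clones), 2.64 to 6.04% (T clones), 4.51 to 6.04% (bystander T cells) and 12.3 to 26.5% (erythroid-like cells), and an Eif3e ratio of -0.28 to -0.16. The genes passed were 15 to 34 for B clones against bystander T cells, 0 to 0 for T clones and for the difference of effects, 2 to 26 for erythroid-like cells, 0 to 12 for B against T clones and 0 to 1 against other B cells. The cause of these changes was not tested. Few cells, depth and globin limit the erythroid-like values, and few cells those of other B cells.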
